A study of Homo sapiens with 8 samples.

Results

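The respiratory chain and ATP synthase were described as 98 protein-coding genes of the 31710 genes in the count table. The members were the protein-coding rows on the mitochondrial chromosome and the nuclear rows whose symbols name NDUF subunits of complex I, SDH genes, UQCR genes, COX4 to COX8 genes or ATP5 genes. Of the 98, 13 are encoded in mitochondrial DNA and 85 in the nucleus. By complex, 7 mitochondrial and 36 nuclear members belong to complex I, 4 nuclear members to complex II, 1 and 8 to complex III, 3 and 16 to complex IV and 2 and 15 to complex V. The other nuclear rows are 3 retrocopies (ATP5EP2, ATP5L2 and UQCRHL), 1 readthrough transcript (ATP5J2-PTCD1) and 2 genes (ATP5S and ATP5SL) that share the name but are not subunits.

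RNA was sequenced from Huh7 and Hep3B, established human liver cancer cell lines, with poly(A) selection and a stranded library. Each line gave 1 library without drug (control), 1 with sertraline, 1 with XL413 and 1 with XL413 followed by sertraline, 8 in all. XL413 is an inhibitor of CDC7, a kinase needed to fire replication origins. It was given for 10 days as a pretreatment that the labels describe as a way to bring on senescence, and sertraline, an antidepressant, was given for 24 hours after it. The labels give no doses, no separate time for sertraline alone and no statement on repeated cultures, and both lines carry no engineered allele that the labels name.

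The respiratory chain passes electrons from NADH and succinate to oxygen and pumps protons across the inner mitochondrial membrane, and ATP synthase lets the protons back to make ATP. Complexes I, III, IV and V are built from subunits of both genomes, while complex II is wholly nuclear. Mitochondrial mRNAs are cut from long transcripts of the whole circular genome, 12 from the heavy strand and MT-ND6 from the light strand. Most of them carry a short poly(A) tail, whereas human MT-ND6 mRNA carries little or none, and the ribosomal RNAs MT-RNR1 and MT-RNR2 carry short tails. Liver cells use the chain heavily, and nuclear subunit genes are known targets of NRF1, GABPA and YY1.

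Depth ranged from 20275392 to 30842770 reads, and 92 of the 98 members passed the filter on low counts, 13 mitochondrial and 79 nuclear. Levels are given as CPM, the reads of a gene relative to all reads of its library, scaled by TMM, and tests are edgeR quasi-likelihood tests with Benjamini-Hochberg adjustment over 16972 genes. The lines serve as the replicates of a treatment, so p-values of drug comparisons measure how alike the responses of these lines were. For Hep3B against Huh7 the treatments serve as replicates, so p-values measure how alike the line difference was across treatments. Tests of whether a drug response differed between the lines have no repeated library of a treatment inside a line. Their spread is how far the drug effects depart from adding up inside each line, so it is not replicate variation. All 11 hepatocyte and liver tumor markers were measured, with a summed level of 29440 to 49770 CPM. Fibroblast markers summed to 25.1 to 246 CPM, endothelial markers to 0.666 to 6.62 CPM and immune markers to 41.5 to 481 CPM. LYZ alone made up almost all of the immune sum, and PTPRC, CD3E and CD68 stayed at or under 0.25 CPM. In such bulk samples, fewer cells of a type and less RNA per cell cannot be told apart.

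Neighbouring mitochondrial genes share bases, so some reads belong to 2 genes, and these shared stretches bear on how the levels below can be read. They are given 5′ to 3′ on the plus strand from GENCODE 29 transcripts, at GRCh38 chrMT:8527-8572 for MT-ATP8 with MT-ATP6 and chrMT:10740-10786 for MT-ND4L with MT-ND4. Capitals mark the start codon of MT-ATP6 and the last 3 bases of MT-ATP8 in the first sequence, which is shared whole, and the 7 shared bases in the second.
MT-ATP8 and MT-ATP6: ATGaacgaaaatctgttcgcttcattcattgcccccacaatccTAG
MT-ND4L and MT-ND4: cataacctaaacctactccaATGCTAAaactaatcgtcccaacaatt
The first pair shares 46 bases of the 207 in MT-ATP8, and the second shares 7 of the 297 in MT-ND4L. How the counting treated a read lying in 2 genes is not stated by the labels, so MT-ATP8 is the least certain of the mitochondrial levels.

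Per kilobase, the 13 mitochondrial mRNAs spanned a wide range in both lines. In Huh7, MT-CO2, a catalytic subunit of complex IV, was highest at 4935 ± 383 CPM per kilobase (SD over 4 treatments), and MT-ND6 was lowest at 184 ± 44. MT-CO1 at 4668 ± 639, MT-CO3 at 4161 ± 628 and MT-ND4 at 4083 ± 642 lay within 1 SD of one another. A middle group in Huh7 held MT-ATP6 at 2378 ± 415, MT-ND4L at 2145 ± 338, MT-ND5 at 1600 ± 225 and MT-CYB at 1590 ± 302 CPM per kilobase. MT-ND3 at 1287 ± 199, MT-ND1 at 1145 ± 168, MT-ND2 at 1104 ± 178 and MT-ATP8 at 857 ± 137 followed, and each of the first 3 of these lay within 1 SD of its neighbour in the order.

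In Hep3B, MT-CO2 was again highest, at 8612 ± 1906 CPM per kilobase, and MT-ND6 again lowest, at 210 ± 31. MT-CO3 at 5192 ± 686, MT-ND4 at 5116 ± 284 and MT-CO1 at 4089 ± 498 came next. MT-ND5, a large proton-pumping subunit of complex I, was twelfth in Hep3B at 726 ± 115 CPM per kilobase, whereas it was seventh in Huh7. MT-ND2 stood at 2040 ± 70, against eleventh place in Huh7.

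**Figure D1:**
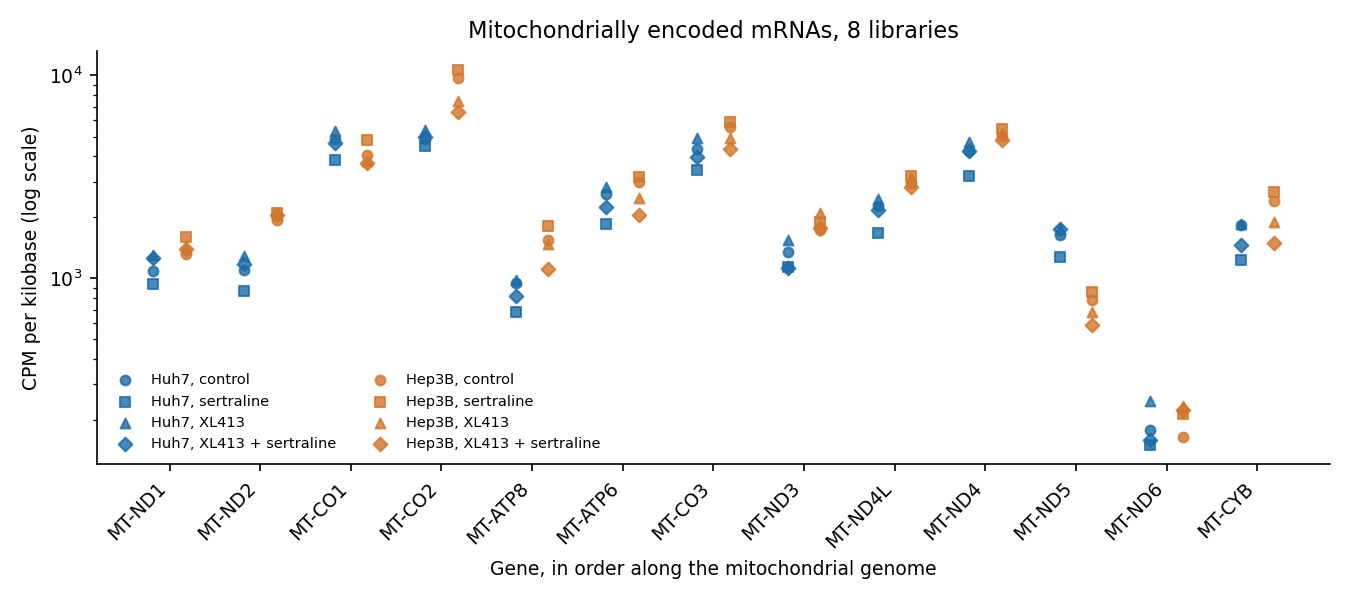
Level of each mitochondrially encoded mRNA in CPM per kilobase (log scale), in gene order along the mitochondrial genome, with 1 point per library, Huh7 in blue and Hep3B in orange, and marker shapes for treatments. MT-ND5 lies lower in all 4 Hep3B libraries than in any Huh7 library, and MT-ND2 and MT-CO2 lie higher.

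The mitochondrial mRNAs differed between the lines in opposite directions. MT-ND5 was at 2975, 2301, 3164 and 3157 CPM in Huh7 (control, sertraline, XL413 and both drugs, an order kept below) and at 1416, 1544, 1232 and 1070 CPM in Hep3B. The groups did not overlap, and MT-ND5 was lower in Hep3B by -1.14 ± 0.16 on the log2 scale (SE, adjusted p = 0.000326). MT-ND2 was at 1142, 899, 1338 and 1223 CPM in Huh7 and at 2021, 2192, 2144 and 2147 CPM in Hep3B, a difference of 0.90 ± 0.12 (adjusted p = 0.000239). MT-CO2 was at 3336, 3058, 3694 and 3415 CPM in Huh7 and at 6627, 7316, 5122 and 4499 CPM in Hep3B, again with no overlap, and was higher by 0.78. Also higher in Hep3B were MT-ATP8 by 0.78, MT-ND3 by 0.55, MT-ND4L by 0.51 and MT-ND1 by 0.33, of which MT-ND1 lost its call in 9 of 19 alternative settings. Between the lines 62.7% of all genes tested were called, against 7 of 13 mitochondrial members, a share near the background.

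Ratios between mitochondrial mRNAs of the same library, which library scaling cannot change, separated the lines. MT-ND5 stood at 0.488 to 0.543 of the MT-ND4 level in the Huh7 libraries and at 0.162 to 0.206 in the Hep3B libraries. MT-CO2 stood at 0.447 to 0.520 of the MT-CO1 level in Huh7 and at 0.788 to 1.06 in Hep3B. For the overlapping pair MT-ATP8 to MT-ATP6 the ratio was 0.106 to 0.111 in Huh7 and 0.157 to 0.180 in Hep3B. MT-ND4L to MT-ND4 was close in both lines, at 0.110 to 0.116 and 0.126 to 0.129. None of these ranges overlapped between the lines. MT-ND5, MT-CO2, MT-ATP8 and MT-ND4L were themselves called between the lines in the same libraries, as were 62.7% of all genes tested. The ratios are thus not separate evidence, and no share over all gene pairs was taken.

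The mitochondrial mRNAs together took 2.92% of reads in untreated Huh7 cells, 2.26% with sertraline, 3.37% with XL413 and 3.10% with both drugs. In Hep3B they took 3.49%, 3.79%, 3.42% and 3.15%. The 85 nuclear members together took 0.919%, 0.831%, 0.922% and 0.746% in Huh7 and 0.849%, 0.755%, 0.883% and 0.815% in Hep3B, so that each library given sertraline lay below its baseline. The mitochondrial share was lower in 3 of 4 libraries with sertraline than in their baselines, and higher in Hep3B given sertraline alone. Its mean log2 change over the 4 pairs was -0.12 ± 0.20 (SD, n = 4 pairs, exact two-sided sign-flip permutation p = 0.25), within the spread of the pairs. It was -0.04 without the Huh7 control or the Huh7 sertraline library and -0.20 without the Hep3B control or the Hep3B sertraline library, and 4 pairs cannot give an exact p below 0.13. For XL413 the mean change was 0.09 ± 0.31 (n = 4 pairs, exact permutation p = 0.75), with both Huh7 pairs above 0 and both Hep3B pairs below 0.

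**Figure D2:**
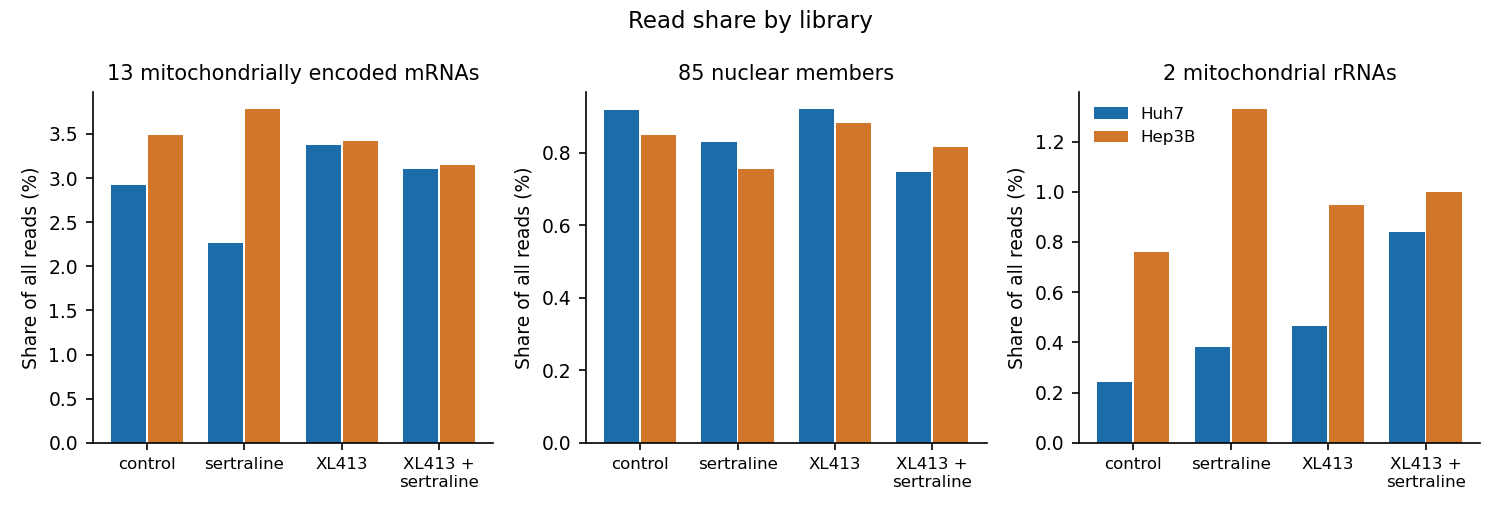
Share of all reads, in percent, taken by the 13 mitochondrially encoded mRNAs, the 85 nuclear members and the 2 mitochondrial ribosomal RNAs, with 1 bar per library, Huh7 in blue and Hep3B in orange. The mRNA share is lowest in Huh7 given sertraline, at 2.26%, and the ribosomal RNA share highest in Hep3B given sertraline, at 1.33%.

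The mitochondrial to nuclear ratio, taken as the mean log2 CPM of the 13 mitochondrial members less that of the 79 measured nuclear members, was 4.27, 4.02, 4.47 and 4.56 in Huh7 and 4.57, 4.86, 4.57 and 4.52 in Hep3B. Sertraline moved it by 0.02 ± 0.23 on average (SD, n = 4 pairs, exact permutation p = 0.875) and XL413 by 0.10 ± 0.37 (n = 4 pairs, exact permutation p = 0.75). It rose in both Huh7 pairs with XL413, by 0.21 and 0.54, and changed by -0.0066 and -0.35 in the Hep3B pairs.

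The mitochondrial ribosomal RNAs are given beside the mRNAs. MT-RNR2, the large ribosomal RNA, was at 1654, 3127, 3495 and 6828 CPM in Huh7 and at 6139, 11822, 7590 and 8084 CPM in Hep3B, so that it was higher with sertraline in all 4 pairs. Its sertraline effect of 0.93 ± 0.36 did not pass the test (adjusted p = 0.18), and MT-RNR1 had 0.24 ± 0.23 (adjusted p = 0.592). The share of both ribosomal RNAs, which poly(A) selection retains poorly and which serves as a sign of library quality, was 0.240%, 0.383%, 0.463% and 0.840% of reads in Huh7 and 0.758%, 1.33%, 0.947% and 0.999% in Hep3B. Its part in the mitochondrial values was not tested.

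Within each line, sertraline alone moved the mitochondrial mRNAs in opposite directions. All 13 were lower in Huh7 given sertraline than in its control, with a median log2 ratio of -0.35 and a range of -0.58 to -0.13. All 13 were higher in Hep3B given sertraline, with a median of 0.13 and a range of 0.07 to 0.38. The 79 nuclear members did not split in this way: 59 were lower in Huh7 and 58 in Hep3B, with medians of -0.12 and -0.13, and 49 were lower in both lines. Of 12483 nuclear genes tested, 6114 were lower in Huh7 and 6477 in Hep3B, with medians of 0.0043 and -0.02. Each ratio compares 1 library with 1, so there is no replicate check, and the 13 mitochondrial mRNAs share their precursor transcripts and are not independent.

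In cells pretreated with XL413, sertraline went with lower mitochondrial mRNAs in both lines. All 13 were lower in Huh7 (median -0.20) and 12 of 13 in Hep3B (median -0.18). Nuclear members were lower in 70 of 79 cases in each line, with medians of -0.36 in Huh7 and -0.11 in Hep3B. Of 12483 nuclear genes tested, 6217 were lower in Huh7 and 6635 in Hep3B, with medians of 0 and -0.02. XL413 alone was followed by higher levels of all 13 mitochondrial mRNAs in Huh7 (median 0.15) and of 6 in Hep3B (median -0.08). In cells given sertraline, those pretreated with XL413 had 12 of 13 mitochondrial mRNAs higher in Huh7 (median 0.27) and 12 of 13 lower in Hep3B (median -0.37).

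**Figure D3:**
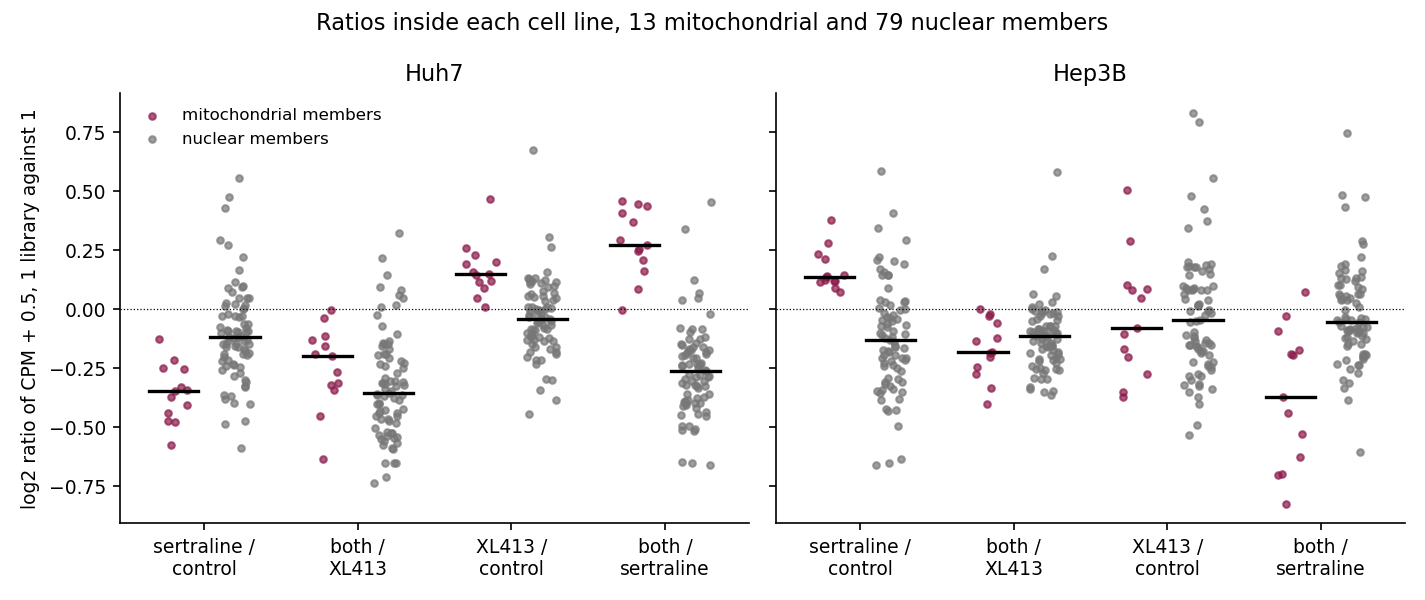
Log2 ratio of CPM (with 0.5 CPM added) between 2 libraries of the same line, for 13 mitochondrial (purple) and 79 nuclear (grey) members, with black bars at the medians. For sertraline against control the 13 mitochondrial members lie below 0 in Huh7 and above 0 in Hep3B, while the nuclear medians are -0.12 and -0.13.

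Sertraline against control, over both lines, changed 2 members. ATP5G1 fell and COX7A2L rose. By this test 4.9% of all genes were called, so 2 of 92 members is below the background share. Of the nuclear members 55 of 79 were below 0, with a median of -0.15 against 0.01 over all genes tested, and of the mitochondrial members 10 of 13, with a median of -0.10. At an unadjusted p under 0.05 there were 12 of 92 members and 3765 of 16972 genes, a smaller share of the members than of all genes. The calls of ATP5G1 and COX7A2L were both lost when any 1 of the 8 libraries was left out. Each such fit leaves 1 library for a treatment, and fewer of all genes were called too. DESeq2 called 6 of 88 members, 1 higher and 5 lower, where it called 12.1% of all genes.

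ATP5G1 (chromosome 17, 48892765 to 48895871, GRCh38) is 1 of 3 genes that encode the same c subunit of the ATP synthase rotor ring. It was at 84.99, 61.1, 73.1 and 46.3 CPM in Huh7 and at 75.1, 47.7, 51.7 and 41.1 CPM in Hep3B. The level was lower with sertraline in every pair of each line, and the change against control was -0.57 ± 0.13 (adjusted p = 0.0432). In pretreated cells the change was -0.50 ± 0.13 (adjusted p = 0.117). Its sister genes ATP5G2 and ATP5G3 had sertraline effects of 0.04 ± 0.11 and -0.30 ± 0.13, neither called.

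COX7A2L (chromosome 2, 42333546 to 42425088) resembles a complex IV subunit and is known to join complexes III and IV into supercomplexes. It was at 72.7, 107, 75.6 and 94.6 CPM in Huh7 and at 83.9, 111, 85.1 and 95.9 CPM in Hep3B. Every library given sertraline lay above every library without it, and the change against control was 0.48 ± 0.11 (adjusted p = 0.0471). In pretreated cells it was 0.25 ± 0.11 (adjusted p = 0.322). Its paralog COX7A2, a complex IV subunit, had -0.17 ± 0.12 and -0.28 ± 0.12 in the same comparisons and was not called.

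Next by p among the nuclear members were NDUFB3, ATP5E and UQCRQ, small subunits of complexes I, V and III. NDUFB3 was at 46.7, 35.7, 44.6 and 30.8 CPM in Huh7 and at 57.1, 36.6, 45.7 and 39.3 CPM in Hep3B, with a change of -0.51 ± 0.13 (adjusted p = 0.0686). ATP5E had -0.38 ± 0.11 (adjusted p = 0.0971) and UQCRQ -0.42 ± 0.12 (adjusted p = 0.098). These values did not pass the test.

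Sertraline in pretreated cells (both drugs against XL413) changed no member by the edgeR test, in which 0.937% of all genes were called. At an unadjusted p under 0.05 there were 26 of 92 members and 2718 of 16972 genes, a larger share of the members than of all genes. DESeq2 called 4 of 88 members, all lower, where it called 6.38% of all genes, and limma voom called 0, where it called 1.26%. Below 0 lay 73 of 79 nuclear members, with a median of -0.23, and 13 of 13 mitochondrial members, with a median of -0.17, against a median of 0.00274 over all genes tested. By complex, the nuclear members below 0 were 33 of 35 in complex I, 4 of 4 in II, 8 of 8 in III, 10 of 12 in IV and 15 of 15 in V. Smallest in p was UQCRQ, at 64.99, 49.2, 70.9 and 43.1 CPM in Huh7 and 79.04, 58.4, 78.0 and 61.0 CPM in Hep3B, with a change of -0.53 ± 0.13 (adjusted p = 0.096). NDUFS5, an accessory subunit of complex I, had -0.46 ± 0.11 (adjusted p = 0.113), UQCR10, a small subunit of complex III, -0.42 ± 0.12 (adjusted p = 0.141) and NDUFA2, another accessory subunit of complex I, -0.43 ± 0.13 (adjusted p = 0.154).

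Transcript length moved with this comparison. In Huh7 the 3121 nuclear genes with the shortest transcripts had a median log2 ratio of -0.10 between these libraries, against 0 over all nuclear genes, and the respiratory members have short transcripts (median 1141 bases against 3190). The members' own median in Huh7, -0.36, lay below that of these short transcripts. In Hep3B the medians were -0.04 for the short transcripts, -0.02 for all nuclear genes and -0.11 for the nuclear members. The part of length in the members' values was not tested. The summed read share of MALAT1 and NEAT1, nuclear RNAs taken as a sign of RNA quality, also moved with sertraline, with XL413 and between the lines. It was 0.00973%, 0.0130%, 0.0146% and 0.0243% in Huh7 and 0.0253%, 0.0427%, 0.0323% and 0.0456% in Hep3B. This share was higher with sertraline in all 4 pairs and with XL413 in all 4 pairs. Every Hep3B library lay above every Huh7 library. Its part in the members' values was not tested.

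XL413 against control changed no gene in the table by the edgeR test (0% of all genes called, 1828 genes and 5 members at an unadjusted p under 0.05). DESeq2 called 0 of 88 members, where it called 1.48% of all genes, and limma voom called 0 members and 0% of all genes. Nuclear members centred on -0.05, with 44 of 79 below 0, and mitochondrial members on 0.03. The 4 complex II genes were all below 0 without passing the test: SDHA had -0.14 ± 0.12, SDHB -0.25 ± 0.11, SDHC -0.15 ± 0.11 and SDHD -0.21 ± 0.13.

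Smallest in p for XL413 was NDUFS1, a core iron-sulfur subunit of complex I, at 293, 266, 224 and 203 CPM in Huh7 and at 243, 210, 197 and 184 CPM in Hep3B. It was lower with XL413 in every pair, by -0.34 ± 0.11 (adjusted p = 0.371). The 3 genes for the c subunit had values in the same direction: -0.38 ± 0.13 for ATP5G1, -0.35 ± 0.14 for ATP5G3 and -0.24 ± 0.11 for ATP5G2. ATP5G2 was at 205, 212, 178 and 161 CPM in Huh7 and at 197, 201, 162 and 154 CPM in Hep3B, and ATP5G3 at 359, 303, 291 and 192 CPM and at 256, 201, 194 and 170 CPM. For ATP5G2 every library with XL413 lay below every library without it, while for ATP5G3 this held within each line.

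Both drugs against sertraline changed no gene by edgeR (0% called, 2173 genes and 10 members at an unadjusted p under 0.05). DESeq2 called 1 of 89 members, lower, where it called 2.36% of all genes, and limma voom called 0 members and 0% of all genes. ATP5G2 and ATP5G3 were smallest in p among the members, at -0.39 ± 0.11 (adjusted p = 0.221) and -0.44 ± 0.14 (adjusted p = 0.258), followed by NDUFA6, an accessory subunit of complex I, at -0.47 ± 0.14. Nuclear members below 0 were 67 of 79, with a median of -0.16 against -0.0029 over all genes. Transcript length moved here too. In Huh7 the 3121 nuclear genes with the shortest transcripts had a median log2 ratio of -0.11, against -0.04 over all nuclear genes. In Hep3B these medians were -0.03 and 0. The 79 nuclear members had medians of -0.26 in Huh7 and -0.05 in Hep3B, and the part of length in them was not tested. The sertraline libraries also enter sertraline against control, and those with both drugs also enter both drugs against XL413, so these comparisons are not independent of one another.

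The interaction of the drugs, which asks whether sertraline acted differently after XL413, called no gene by edgeR, DESeq2 or limma voom (0% called, 140 genes and 1 member at an unadjusted p under 0.05). That member was ATP5EP2, a retrocopy at or under 1.16 CPM in each library, whose reads may come from ATP5E, so its value is uncertain. COX6A1 had -0.29 ± 0.16, NDUFA2 -0.31 ± 0.18, MT-ND6 -0.41 ± 0.26 and MT-ND3 -0.29 ± 0.19.

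The response to XL413 differed between the lines for 8 members, where 8.9% of all genes tested were called, so the 8 of 92 is a share near the background. Relative to Huh7, the response of Hep3B was more positive for NDUFS7, NDUFA11, UQCR11 and ATP5D, all nuclear, and more negative for MT-CYB, MT-CO2, MT-ATP6 and MT-ND5. This test uses all 8 libraries in a model with separate drug effects for each line.

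NDUFS7 (chromosome 19, 1383527 to 1395589) is the core subunit of complex I that carries the last iron-sulfur cluster before ubiquinone. It was at 40.5, 49.0, 37.3 and 34.6 CPM in Huh7 and at 31.8, 47.9, 57.0 and 66.7 CPM in Hep3B. XL413 libraries were lower than their baselines in Huh7 and higher in Hep3B, and the difference of the responses was 0.97 ± 0.16 (adjusted p = 0.000673).

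NDUFA11 (chromosome 19, 5891276 to 5904006), an accessory subunit in the membrane arm of complex I, was at 26.9, 24.6, 24.5 and 17.9 CPM in Huh7 and at 14.8, 18.2, 25.9 and 25.7 CPM in Hep3B. The difference was 0.94 ± 0.17 (adjusted p = 0.00134). Of the bases of 1 transcript chosen for this gene, 67.0% overlap another gene on the same strand in GENCODE 29, so its level is uncertain.

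UQCR11 (chromosome 19, 1597172 to 1605490), the smallest subunit of complex III, was at 65.5, 58.2, 59.5 and 43.7 CPM in Huh7 and at 65.6, 57.7, 83.4 and 78.1 CPM in Hep3B. The lines were alike without XL413 and apart with it, with a difference of 0.67 ± 0.14 (adjusted p = 0.00451). ATP5D (chromosome 19, 1241746 to 1244826), the delta subunit of the ATP synthase central stalk, was at 46.8, 44.3, 46.7 and 36.2 CPM in Huh7 and at 58.9, 66.3, 82.2 and 80.4 CPM in Hep3B. Its difference was 0.53 ± 0.15 (adjusted p = 0.0271), and the call was lost in 6 of 18 alternatives, among them DESeq2 and GC and length correction, which gave 0.099.

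These 4 nuclear genes lie together within the first 6 Mb of chromosome 19, the end of its short arm. The 137 tested genes of that stretch moved with them: their median log2 ratio of XL413 to control was 0.45 in Hep3B, with 7 of 137 below 0, and -0.08 in Huh7. On other chromosomes, 1509 genes of like GC content had medians of 0.13 in Hep3B and -0.0085 in Huh7. The part of this shift of the whole stretch in the values of the 4 members was not tested.

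**Figure D4:**
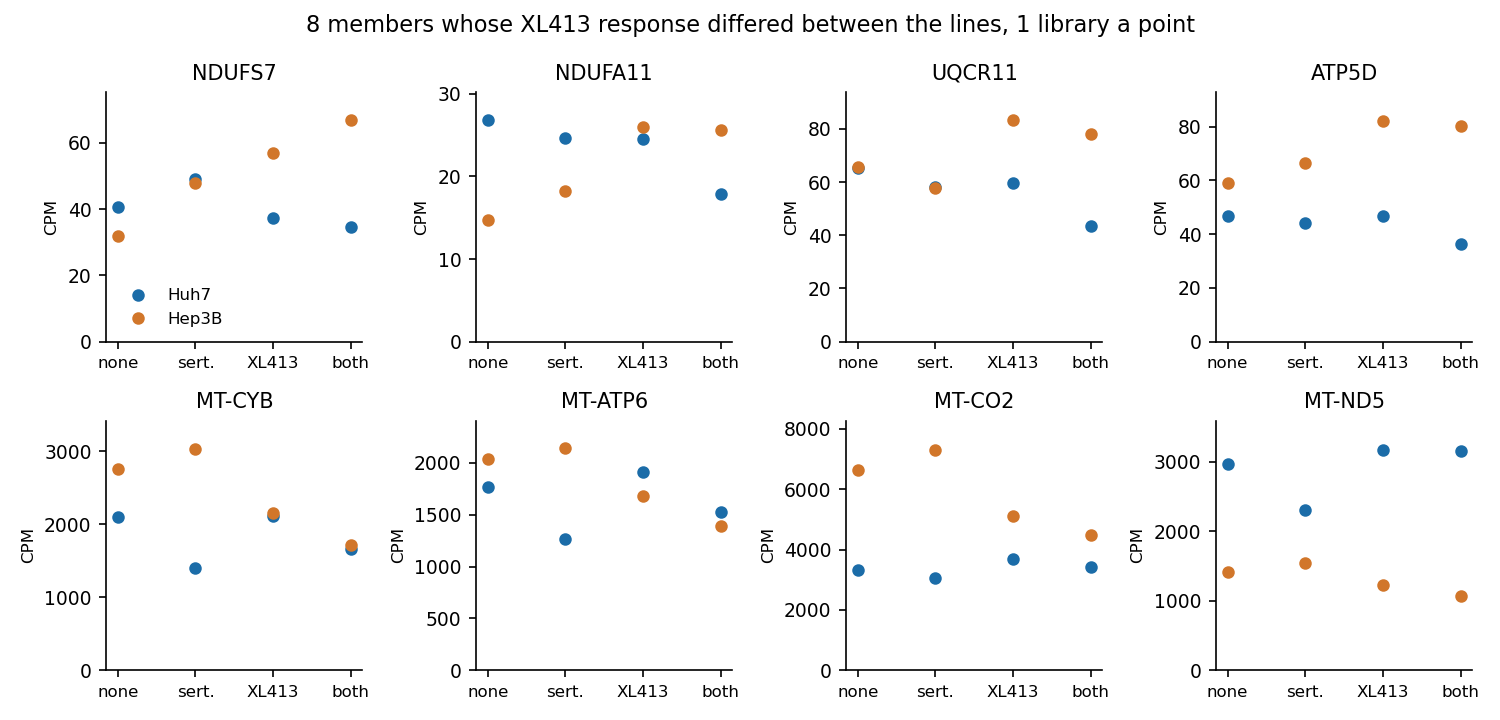
CPM of the 8 members whose XL413 response differed between the lines, with 1 point per library, Huh7 in blue and Hep3B in orange, in untreated cells (none) and with sertraline (sert.), XL413 or both drugs. In Hep3B the NDUFS7 level was 31.8 CPM without drug and 57.0 CPM with XL413, and in Huh7 it was 40.5 and 37.3 CPM.

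Of the mitochondrial members, MT-CYB, the cytochrome b of complex III, was at 2091, 1401, 2105 and 1661 CPM in Huh7 and at 2750, 3027, 2156 and 1709 CPM in Hep3B. The lines differed most in cells given sertraline alone and were close in both XL413 groups. The difference of the XL413 responses was -0.72 ± 0.19 (adjusted p = 0.019). MT-ATP6, the proton-channel subunit of ATP synthase, was at 1767, 1268, 1913 and 1530 CPM in Huh7 and at 2041, 2146, 1685 and 1390 CPM in Hep3B, with a difference of -0.64 ± 0.17 (adjusted p = 0.0234).

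MT-CO2 and MT-ND5, whose levels are given above, had differences of -0.69 ± 0.19 (adjusted p = 0.0268) and -0.64 ± 0.18 (adjusted p = 0.0338). Over the 13 mitochondrial members the median difference was -0.46, with 12 below 0, against 0.08 over the 79 nuclear members and -0.02 over all genes. The ribosomal RNAs differed in the same direction, MT-RNR2 by -1.22 ± 0.24 (adjusted p = 0.00215) and MT-RNR1 by -0.76 ± 0.17 (adjusted p = 0.00837). MALAT1 and NEAT1, taken above as a sign of RNA quality, were also called in this direction. Over these 4 RNAs the median difference was -0.68. The part of RNA quality in the mitochondrial values was not tested. Without the Huh7 library given sertraline, or without the Huh7 library given both drugs, only NDUFS7 stayed called, and fewer of all genes were called too. Without the Hep3B library given sertraline, or without the Hep3B library given both drugs, the members called were all nuclear. More of all genes were called there than in the main fit. The 4 mitochondrial calls were thus lost in each of these 4 fits. MT-ATP6 and MT-CO2 lost their calls in 6 of 18 alternatives, MT-ND5 in 5 and MT-CYB in 4. For MT-ND5 the GC and length correction was among them.

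The response to sertraline differed between the lines for 2 members, where 4.34% of all genes were called. NDUFS8 (chromosome 11, 68030617 to 68036644), a core iron-sulfur subunit of complex I, was at 180, 143, 181 and 126 CPM in Huh7 and at 111, 128, 149 and 149 CPM in Hep3B. It was lower with sertraline in both Huh7 pairs and not lower in either Hep3B pair, a difference of 0.53 ± 0.14 (adjusted p = 0.033). MT-ND6 was at 93.8, 78.6, 130 and 83.4 CPM in Huh7 and at 86.5, 112, 123 and 118 CPM in Hep3B, a difference of 0.61 ± 0.16 (adjusted p = 0.0345). NDUFS8 lost its call in 8 of 18 alternatives and MT-ND6 in 7. In the GC and length corrected fit 0 members were called, where 2.99% of all genes were. All 13 mitochondrial members had a difference above 0, with a median of 0.29 against -0.01 over all genes, but the 12 others did not pass the test.

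Hep3B and Huh7 differed in 47 of the 92 members tested, 26 higher in Hep3B and 21 lower, against the 62.7% called over all genes. Among the nuclear members 20 were higher and 20 lower. NDUFV1 (chromosome 11, 67606852 to 67612535), the core subunit that binds NADH, was at 439, 445, 395 and 340 CPM in Huh7 and at 185, 213, 209 and 213 CPM in Hep3B, a difference of -0.98 ± 0.11 (adjusted p = 8.54e-05). NDUFS3, another core subunit of complex I, was higher in Hep3B by 0.61 ± 0.08 (adjusted p = 0.000306).

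In complex IV, COX4I1 (chromosome 16, 85798633 to 85807044), the common form of the regulatory subunit 4, was at 358, 353, 392 and 315 CPM in Huh7 and at 209, 202, 208 and 196 CPM in Hep3B. It was lower in Hep3B by -0.79 ± 0.08 (adjusted p = 5.74e-05). In complex III the core proteins moved apart, UQCRC1 by -0.66 ± 0.09 and UQCRC2 by 0.54 ± 0.08, both called. In complex V the alpha subunit ATP5A1 was lower by -0.71 and ATP5D and ATP5E higher by 0.72 and 0.49. In complex II SDHC, a membrane anchor, was higher by 0.57 ± 0.08 and SDHB, the iron-sulfur subunit, lower by -0.33 ± 0.08. Further accessory subunits of complex I higher in Hep3B were NDUFB5 by 0.76, NDUFS6 by 0.90 and NDUFS5 by 0.56, and lower were NDUFB2 by -0.64, NDUFA12 by -0.56 and NDUFA8 by -0.51.

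**Figure D5:**
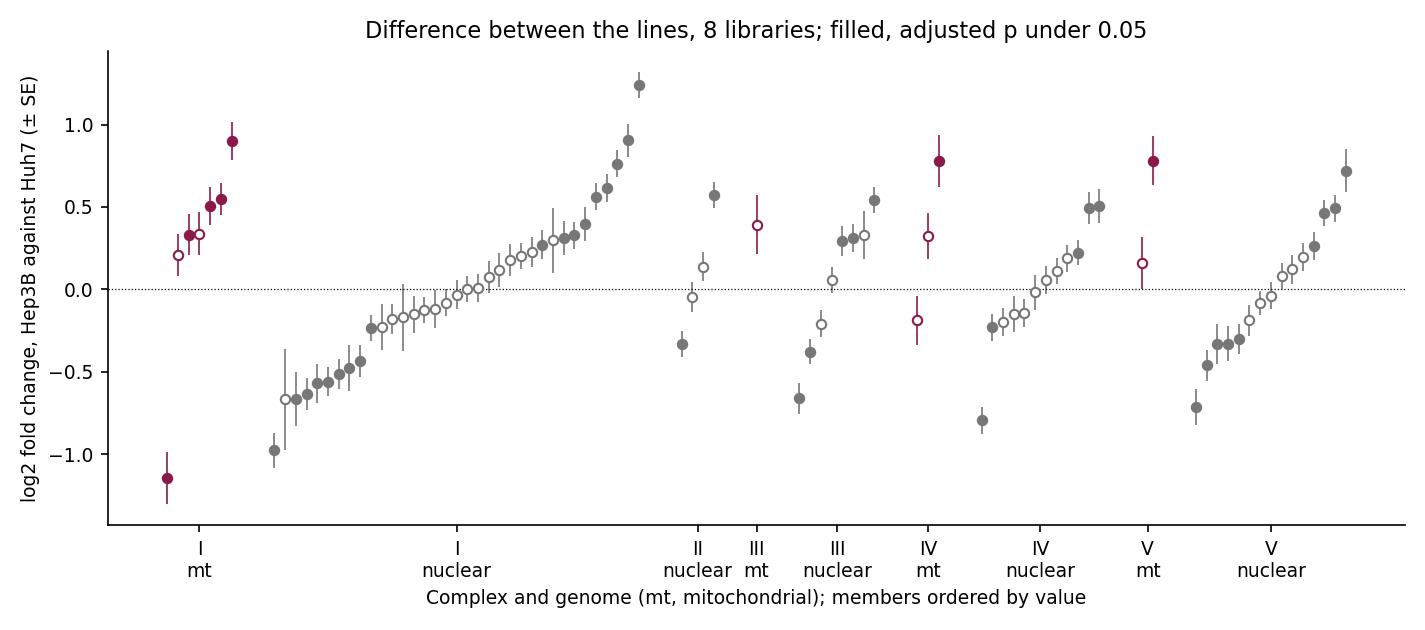
Log2 fold change of each subunit gene, Hep3B against Huh7 over 8 libraries, with SE bars, grouped by complex and genome (purple mitochondrial, grey nuclear) and filled where called. Nuclear values run on both sides of 0 in each complex, with NDUFV1 at -0.98 and NDUFS6 at 0.90 in complex I.

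Of the tissue-specific isoforms, the forms known from other tissues were nearly absent. COX4I2 had 2 reads over all 8 libraries, COX7B2 and COX8C 1 read each and COX6B2 10 reads, and these 4 were not tested. Their common counterparts were well measured: COX6B1 at 112 to 184 CPM, COX7B at 54.7 to 79.4 CPM and COX8A at 56.7 to 118 CPM. NDUFA4, a complex IV subunit despite its name, was at 218, 178, 216 and 137 CPM in Huh7 and at 310, 253, 255 and 228 CPM in Hep3B, and was called between the lines (0.50 ± 0.10, adjusted p = 0.00215) and in no drug comparison. COX6A1, the common form of subunit 6A, was at 73.9 to 102 CPM.

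Some members share most of the bases of 1 chosen transcript with another gene, and the percents here are of that transcript, not of all exons. NDUFV2, a core subunit of complex I, was listed at 0.638 to 1.82 CPM, and 82.9% of its bases lie in another gene on the same strand in GENCODE 29. NDUFA7 was at 0.106 to 0.283 CPM, with 75.9% of its bases in another gene, and was not tested. NDUFB8 and ATP5O had 71.7% and 70.3% of their bases in such genes, and 83.4% of the bases of NDUFB2 lie opposite another gene. Reads that fit 2 genes may not have been counted for either, so levels of these members are uncertain.

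Promoter windows were looked up because NRF1, ETS factors such as GABPA and YY1 are the known regulators of nuclear subunit genes. The windows run from 250 bases before to 50 bases after a gene's start and were taken from RefSeq (GRCh38.p14), and 66 of the 85 nuclear members had at least 1. GCGCATGCG (NRF1), CCGGAAG (ETS) and AAGATGGCG (YY1) were searched on both strands. These motifs do not overlap one another in the windows printed here. At least 1 window held the NRF1 motif in 11 of 66 members (16.7%) against 2.34% of 27305 genes with a window. The ETS motif was held by 20 members (30.3%) against 12.2% of all genes, and the YY1 motif by 9 (13.6%) against 2.14%. Any of the 3 was held by 33 of 66 members against 15.4% of all genes.

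Windows of 4 members are shown, those of NDUFS7 and UQCR11 for their different XL413 response, COX4I1 for its difference between the lines and ATP5G1 for its fall with sertraline. They are at chr19:1383657-1383956 (plus strand), chr19:1605413-1605712 (minus), chr16:85799445-85799744 (plus) and chr17:48892537-48892836 (plus), each 5′ to 3′ along the gene, with motif matches in capitals.
NDUFS7: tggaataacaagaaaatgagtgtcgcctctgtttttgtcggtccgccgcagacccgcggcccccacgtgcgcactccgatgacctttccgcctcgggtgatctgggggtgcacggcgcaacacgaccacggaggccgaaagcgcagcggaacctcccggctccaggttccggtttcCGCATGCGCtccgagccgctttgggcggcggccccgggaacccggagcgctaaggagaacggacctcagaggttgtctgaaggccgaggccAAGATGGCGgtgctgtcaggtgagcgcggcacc
UQCR11: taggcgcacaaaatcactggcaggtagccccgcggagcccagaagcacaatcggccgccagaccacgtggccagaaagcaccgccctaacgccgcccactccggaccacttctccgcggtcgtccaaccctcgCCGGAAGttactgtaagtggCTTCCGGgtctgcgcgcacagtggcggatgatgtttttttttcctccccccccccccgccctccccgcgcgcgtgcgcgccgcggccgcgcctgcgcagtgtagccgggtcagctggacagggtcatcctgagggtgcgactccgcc
COX4I1: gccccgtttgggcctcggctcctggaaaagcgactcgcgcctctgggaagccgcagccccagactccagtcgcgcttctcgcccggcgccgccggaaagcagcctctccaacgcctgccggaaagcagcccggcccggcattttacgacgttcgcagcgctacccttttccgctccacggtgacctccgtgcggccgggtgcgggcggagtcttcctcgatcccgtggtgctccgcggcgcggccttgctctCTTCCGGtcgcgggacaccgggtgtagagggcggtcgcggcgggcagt
ATP5G1: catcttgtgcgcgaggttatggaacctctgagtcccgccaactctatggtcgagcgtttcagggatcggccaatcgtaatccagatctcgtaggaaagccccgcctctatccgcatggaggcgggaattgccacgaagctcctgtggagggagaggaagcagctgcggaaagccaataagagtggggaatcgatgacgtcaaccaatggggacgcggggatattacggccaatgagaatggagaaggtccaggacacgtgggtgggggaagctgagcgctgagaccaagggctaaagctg
NDUFS7 holds an NRF1 match that begins 74 bases before the start and a YY1 match after it. UQCR11 holds ETS matches on both strands, beginning 117 and 97 bases before the start, and COX4I1 holds an ETS match just after its start. None of the 3 motifs is in the ATP5G1 window, which says only that these letters are not there. A match is a description of sequence, not a measured binding site.

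Genes that regulate or serve the chain were looked at in 6 lists. Of 18 biogenesis regulators tested, 1 rose with sertraline, a share near the 4.9% of all genes called. It was PPARGC1A, a coactivator known to drive mitochondrial gene programs. It was at 2.26, 7.61, 6.60 and 28.3 CPM in Huh7 and at 4.93, 21.5, 11.4 and 21.98 CPM in Hep3B. It was higher with sertraline in all 4 pairs, by 1.97 ± 0.41 against control (adjusted p = 0.0343), and in pretreated cells by 1.62 ± 0.38 (adjusted p = 0.102). The nuclear members' median in the same sertraline comparison was -0.15. NRF1, GABPA, YY1 and TFAM, from the same list, were not called in any drug comparison.

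Of 16 citric acid cycle genes, 1 rose with sertraline, again a share near 4.9%. DLAT, a subunit of pyruvate dehydrogenase, was at 314, 484, 228 and 298 CPM in Huh7 and at 152, 297, 103 and 156 CPM in Hep3B, an increase of 0.80 ± 0.13 against control (adjusted p = 0.0164). Of 42 assembly factors, 19 genes of mitochondrial RNA processing, 10 of coenzyme Q synthesis and 6 further structural subunits, 0 changed with sertraline by edgeR, and their medians were -0.16, -0.25, -0.07 and -0.23. None of the 6 lists had a gene called in pretreated cells given sertraline or with XL413.

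The sertraline response differed between the lines for 2 of 42 assembly factors, 1 of 18 biogenesis regulators, 1 of 19 genes of mitochondrial RNA processing and 0 genes of the other lists, where 4.34% of all genes were called. The gene of RNA processing was LRPPRC, which stabilises mitochondrial mRNAs. It was at 213, 291, 184 and 252 CPM in Huh7 and at 397, 319, 323 and 313 CPM in Hep3B, with sertraline higher in both Huh7 pairs and lower in both Hep3B pairs, by a difference of -0.64 ± 0.14 (adjusted p = 0.0142). In cells not pretreated the mitochondrial mRNAs had the opposite signs in each line. In pretreated Huh7 cells LRPPRC was higher with sertraline and all 13 mitochondrial mRNAs were lower. In pretreated Hep3B cells LRPPRC and 12 of 13 mitochondrial mRNAs were both lower with sertraline. A link between LRPPRC and these mRNAs was not tested. PPARGC1B, a relative of PPARGC1A, differed by -0.95 ± 0.19 (adjusted p = 0.00516), COA7 by -0.64 ± 0.15 (adjusted p = 0.0195) and TMEM126B by -0.58 ± 0.16 (adjusted p = 0.0381). The last 2 are assembly factors of complexes IV and I.

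The XL413 response differed between the lines for 3 of 42 assembly factors, 2 of 18 biogenesis regulators and 0 genes of the other lists, where 8.9% of all genes were called. POLRMT, the mitochondrial RNA polymerase, was at 87.0, 88.4, 81.4 and 72.3 CPM in Huh7 and at 97.7, 102, 134 and 132 CPM in Hep3B, a difference of 0.61 ± 0.13 (adjusted p = 0.00614). PPARGC1A differed by -1.27 ± 0.28 (adjusted p = 0.00558). The assembly factors NDUFAF3 and UQCC3 differed by 0.67 and 0.65 and COX20 by -0.50.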

How the data were processed

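Whole-number read counts per Ensembl gene were deposited by the authors for 8 poly(A)-selected, stranded libraries, unnormalized. HISAT2, HTSeq and GRCh38 (hg38) are named, per the submitters' processing notes. The sources used here do not give versions, annotation release, strand setting or how overlapping genes were handled. The members, gene lists, motifs and naming rule were chosen with earlier results of these data known.

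filterByExpr kept 16972 of 31710 genes. Counts were scaled by TMM and tested with edgeR 4.0.16 in R 4.3.3 (glmQLFit, glmQLFTest) with terms for treatment and cell line, all 8 libraries entering 1 fit that leaves 3 residual degrees of freedom. Differences between the lines in a drug response were tested in a model with separate drug effects for each line, with 2. The threshold was an adjusted p of 0.05, and each standard error was derived from the F statistic. Line and replicate number are the same label. Libraries of a line pair because they come from the same cells, so the cell line is a block of the model. After removal of treatment means they correlated at r = 0.888 to 0.942. With 1 library per line and treatment, this r reflects the difference between the lines and cannot show pairing beyond it. Nothing states that libraries came from separate cultures. Ratios inside a line add 0.5 CPM and have no test. Read shares and mitochondrial to nuclear ratios were compared with exact sign-flip tests over 4 pairs in scipy 1.17.1. The procedure was tested on simulated data. Named genes are all mitochondrial members, up to 10 called nuclear members each way (or the 5 of smallest p where fewer than 5 were called), the 5 of smallest p in the interaction and line differences, the isoform sets and complex II, and the 4 of smallest p in other lists, given here where the text turns on them. Alternatives were run with DESeq2 1.42.0 and limma 3.58.1 voom, and a correction for GC and length, chosen after seeing the data. The depth of 20275392 to 30842770 reads limits precision for weakly expressed genes. Figures used matplotlib 3.10.9. Some members and markers are not reported here.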

Additional observations from a re-analysis of the deposited data

Results flagged for a closer look

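Responses to a drug that differed between the lines, by the test of the difference itself, were marked for a closer look. For sertraline these were NDUFS8 (0.53, log2, Hep3B less Huh7) and MT-ND6 (0.61). For XL413 they were NDUFS7 (0.97), NDUFA11 (0.94), UQCR11 (0.67) and ATP5D (0.53), which all lie in the first 6 Mb of chromosome 19, and MT-CYB (-0.72), MT-ATP6 (-0.64), MT-CO2 (-0.69) and MT-ND5 (-0.64).

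The mitochondrially encoded read share rose in both Huh7 pairs with XL413 and fell in both Hep3B pairs, a difference of -0.48 between the mean log2 changes that was not tested. The mitochondrial to nuclear ratio had the same signs, with a difference of -0.55 that was likewise not tested. In the Hep3B pair without sertraline the changes were only -0.029 for the share and -0.0066 for the ratio. In the Hep3B pair given sertraline they were -0.27 and -0.35.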

How the results depend on the processing

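The 2 members called for sertraline against control became 1 with total count scaling (5.01% of all genes called), 5 at an adjusted p under 0.10 (9.88%) and 6 with DESeq2 (12.1%). They became 16 in an additive model (20%) and 22 with line-specific drug effects (33.2%). Both calls were lost without any 1 library, where a smaller share of all genes was called too. In both drugs against XL413, 0 became 1 at an adjusted p under 0.10 (2.63% of all genes), 4 with DESeq2 (6.38%) and 46 with line-specific drug effects (26.4%), a model which leaves 1 residual degree of freedom. XL413 against control went from 0 to 4 in the additive model (6.45%) and 11 with line-specific effects (17.9%), and both drugs against sertraline from 0 to 1 with DESeq2 (2.36%) and 18 with line-specific effects (21.1%). The line difference of the sertraline effect went from 2 to 0 with total count scaling (2.8% of all genes) and with GC and length correction (2.99%), and to 1 with DESeq2 (3.46%). Without 1 library its count moved both ways, as did the share of all genes called. The line difference of the XL413 effect kept its count or lost members without 1 library. The share of all genes called was below the 8.9% of the main fit without a Huh7 library and above it without a Hep3B library. Leaving out 1 library kept the calls between Hep3B and Huh7 at 38 to 45 (54.1% to 57.2% of all genes). With no replicate block, which ignores that libraries of a line pair, 0 members and 0% of all genes were called for sertraline. The mean change of the mitochondrial share ran from -0.20 to -0.04 for sertraline without 1 library and for XL413 from -0.0299 to 0.21 without 1 library, and the mitochondrial to nuclear ratio from -0.0733 to 0.11 for sertraline (-0.0043 without either Huh7 library given XL413) and -0.0493 to 0.25 for XL413. The cause of these shifts was not tested. Of the members called, or of smallest p, in each comparison, none reversed its direction in the alternatives run. Other members named for their isoform set or complex were not followed through the alternatives.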
